A study of Homo sapiens with 6 samples.

Results

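Homologous recombination, the Fanconi anemia pathway and the DNA damage checkpoint were followed through 34 genes, taken as the rows of the count table whose symbol equals an entry of a fixed list. All 34 were found among the 22989 genes of the table, and all 34 had enough counts to be tested. They were compared between LINC00115 knockdown (KD) and WT libraries, each with 3 libraries.

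Homologous recombination repairs a broken chromosome, or a collapsed replication fork, by copying the intact sister chromatid. The MRN complex finds the break and starts to trim it, BRCA1 and its partners extend the trimming and bring in BRCA2, and the exposed single strand then searches for the matching sequence. The Fanconi pathway unhooks crosslinks between the strands and hands the break to the same machinery, while the kinases ATM and ATR, acting through CHK2 and CHK1, hold the cell cycle until repair is done. Many of these genes are transcribed mainly in S and G2 phase, and defects in several of them predispose to breast cancer.

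MDA-MB-231 is an established line of human breast cancer cells without hormone receptors or HER2 amplification, and the cells labelled PTX-resistant BCSC are its paclitaxel-resistant derivative, sorted in the study's methods for high aldehyde dehydrogenase activity. Both groups share this background. The KD group carries a short hairpin RNA against LINC00115 in virus-infected, puromycin-selected cells, and the labels call the other group WT whereas the study's text describes a control hairpin, so an effect of a hairpin or of its vector cannot be told apart from loss of LINC00115. The study's text names sh115-2 as the hairpin of the RNA sequencing, and the KD columns, sh115-1 to sh115-3, are replicates by their titles. The experiments shown together with this one are described as representative of independent repeats, but no source ties the individual libraries to separate cultures, so the p-values measure the spread between these libraries, which may be technical.

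The libraries held 36979221 to 38799331 counts, and the 34 genes took 0.124% to 0.129% of them in WT and 0.105% to 0.108% in KD. The samples are labelled human, but the symbols are in mouse style, with 276 Gm or Rik genes, names given to mouse genes without a known function, at 100 counts or more in every library. Of the 34 symbols, 33 equal a current human symbol apart from case, and Mre11a is an older name of MRE11. In all, 4648 Gm and 1129 Rik symbols are present, so the gene names are those of a mouse annotation. The table alone does not settle whether the reads were human or mouse. Every value below is that of the gene as the table names it. No mouse genome was used here, so neither positions nor lengths are given and levels are not compared between genes. LINC00115 has no row, so the knockdown could not be checked and each direction rests on the group labels. Of 9 markers that the labelled line should express, 7 were well counted, Vim and Cd44 among them (at least 3368 and 872 normalized CPM in every library), and 6 of the 8 tested were higher in KD, including Krt8 and Krt18 (log2 fold changes of 0.67 and 0.87). Aldh1a3, a main source of aldehyde dehydrogenase activity in breast cancer cells, was at 0 in 4 of the 6 libraries, and Aldh1a1 rose from 0.212 to 0.450 normalized CPM in WT to 1.06 to 1.34 in KD. Of 5 markers that the line should lack or express weakly, the 3 tested were higher in KD: Erbb2 lay at 15.7 to 18.3 in WT and 27.1 to 28.1 in KD, Esr1 at 0.635 to 0.770 and 2.23 to 2.74, and Cdh1 at 0.0265 to 0.0794 and 0.569 to 0.817. Epcam stayed at or under 0.132 and Pgr at or under 0.0796.

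The repair and checkpoint genes moved in both directions and mostly by small amounts. Chek2, which encodes the checkpoint kinase CHK2, fell to 0.369 of its WT level, and Nbn, the MRN subunit that brings ATM to breaks, rose 2.32-fold. Brca1, Fancg and Rad54l came down to 0.509 to 0.520 of WT and Brip1 to 0.561, while Rad51b rose 1.90-fold. Some genes whose products work as one complex moved apart, among them Bard1 and Brca1, Nbn and Mre11a, and Fancf and Fancg. Others fell together, such as Rad50 and Mre11a, and Palb2 and Brca2. Of all genes tested, 36.7% were lower and 36.7% higher at an adjusted p under 0.05 (edgeR).

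Counts were tested over all 13497 genes that passed the expression filter with edgeR's quasi-likelihood test, and p-values were adjusted by the Benjamini-Hochberg method. Levels are normalized CPM, the counts of a gene relative to its library's total after TMM scaling. With the calls limited to an adjusted p under 0.05 with more than a 2-fold difference, 1 of the 34 genes was lower (Chek2) and 1 was higher (Nbn), 2.94% each, where 9.98% of all genes tested were lower and 10.2% higher. Without the fold threshold 17 were lower and 6 higher, 50.0% and 17.6%, beside 36.7% of all genes in each direction, and 11 did not pass. In total 67.6% of the 34 genes passed, beside 73.4% of all genes. Tested against a fold change of 1.5, the genes that passed were Chek2, Brca1, Rad54l, Fancg and Brip1 among those lower (14.7%, beside 12.8% of all genes) and Nbn among those higher (2.94%, beside 13.8%).

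The groups did not overlap for 16 genes lower and 5 genes higher in KD, 47.1% and 14.7% of the 34, where 37.8% of all genes had every KD library below every WT library and 37.8% the reverse. The median log2 fold change was −0.18, against −0.01 over all genes tested, and the median size of the change without its sign was 0.25 on the log2 scale, against 0.45. Summed over the 34 genes the level was 1258 ± 18.9 normalized CPM in WT and 1075 ± 15.7 in KD (SD, n = 3 libraries each). Every KD sum lay below every WT sum, with an exact two-sided permutation p of 0.1, the smallest that 3 against 3 libraries allow. The 11 genes that did not pass are not thereby equal in the groups: their log2 fold changes were at most 0.24 in size, and the widest of their 95% intervals reached 0.48, a fold change of 1.40.

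**Figure D1:**
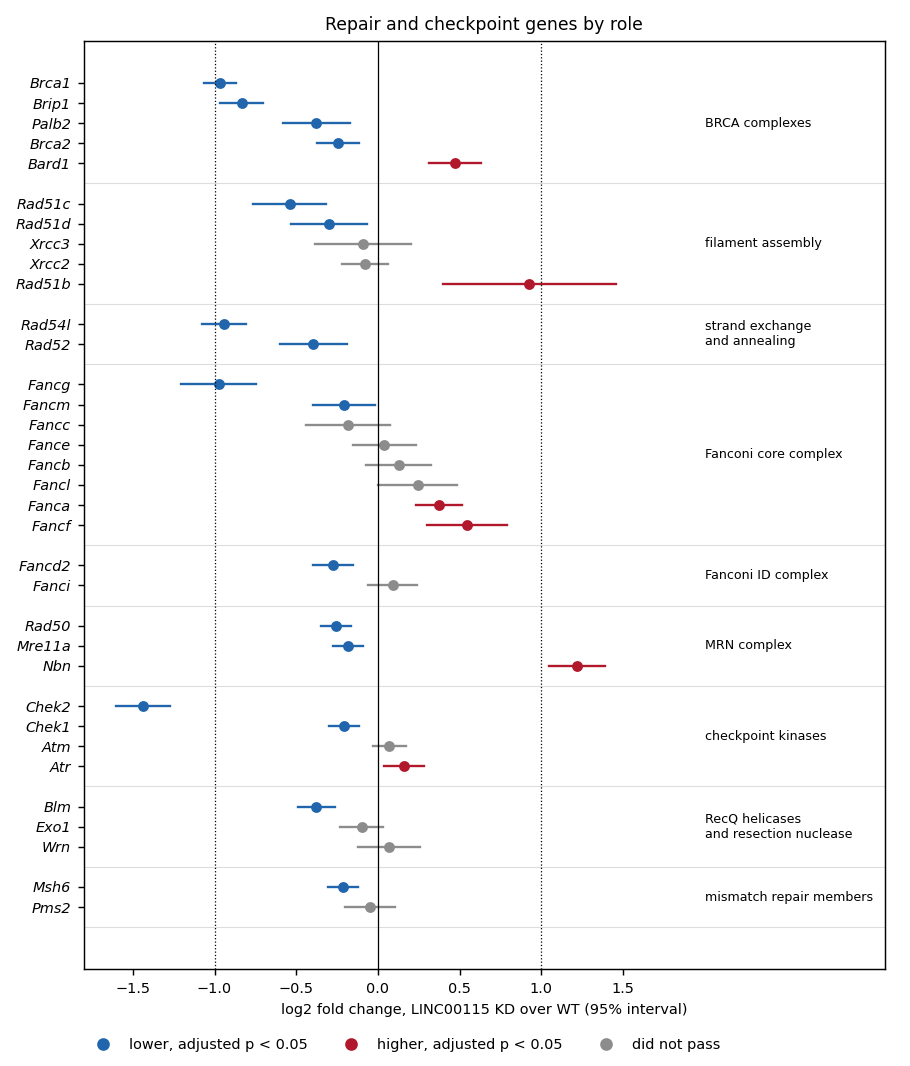
Log2 fold change of KD over WT for the 34 genes grouped by role, with bars for the 95% interval of edgeR's fit and dotted lines at a fold change of 2. Chek2 and Nbn lie beyond the dotted lines, and the intervals of Brca1, Rad54l, Fancg and Rad51b cross them.

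BRCA1 and BARD1 form a ubiquitin ligase that marks damaged chromatin, and each stabilises the other's protein. Brca1 stood at 117, 115 and 114 normalized CPM in the WT libraries and at 57.3, 63.4 and 56.4 in the KD libraries. Its groups lay far apart, a log2 fold change of −0.97 (standard error, SE, 0.05, adjusted p = 5.96e-19, edgeR), just inside the fold threshold, which it passed without KD replicate 2 (−1.01) and with upper quartile scaling (−1.01). Bard1 went the other way, from 23.9, 25.3 and 22.9 in WT to 32.2, 37.9 and 30.1 in KD. Every KD library was above every WT library, with KD replicate 2 the highest, and the log2 fold change was 0.47 (SE 0.08, adjusted p = 1.76e-06). Brip1, a helicase that binds BRCA1 and is also the Fanconi gene FANCJ, fell like Brca1, from 48.4 ± 1.62 to 27.1 ± 1.68 (log2 fold change −0.83, adjusted p = 8.92e-14). Palb2, which bridges BRCA1 and BRCA2, fell by 0.38 and Brca2, which acts at the trimmed single strand, fell by 0.25 on the log2 scale (adjusted p = 0.00118 and 7.12e-04). Of the 5 genes of these complexes, 4 were thus lower and 1 was higher, without overlap, where 36.7% of all genes tested passed in each direction.

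The products of Rad51b, Rad51c, Rad51d, Xrcc2 and Xrcc3 are related proteins that help to prepare the single strand for strand exchange, RAD51B, RAD51C, RAD51D and XRCC2 in one complex and RAD51C with XRCC3 in another. Rad51b was the least counted gene of the 34, with 65, 49 and 62 counts in the WT libraries and 119, 106 and 110 in the KD libraries. The groups were separate and the log2 fold change was 0.92, with a wide 95% interval from 0.40 to 1.45 (adjusted p = 0.00197, edgeR), and it passed a fold change of 2 without WT replicate 1 (1.01). Rad51c stood at 13.1, 12.9 and 13.1 normalized CPM in WT and at 8.04, 9.75 and 9.16 in KD, a fall of 0.54 on the log2 scale (SE 0.11, adjusted p = 4.58e-05). Rad51d had overlapping groups, and its log2 fold change of −0.30 (adjusted p = 0.0186) lost its call without WT replicate 1, WT replicate 3 or KD replicate 3 (−0.17 at the smallest) and with DESeq2. Xrcc2 and Xrcc3 did not pass, with intervals from −0.22 to 0.06 and from −0.39 to 0.20 on the log2 scale.

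Rad54l encodes a motor protein that drives strand invasion. It stood at 50.5, 43.5 and 46.1 normalized CPM in WT and at 24.2, 24.4 and 24.3 in KD. The KD libraries were nearly equal and far below the lowest WT library, a log2 fold change of −0.94 (SE 0.07, adjusted p = 9.87e-15, edgeR). Rad52, which anneals single strands in a side route of recombination, fell by 0.40 (adjusted p = 8.12e-04), from 14.2 ± 0.710 to 10.8 ± 0.559.

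**Figure D2:**
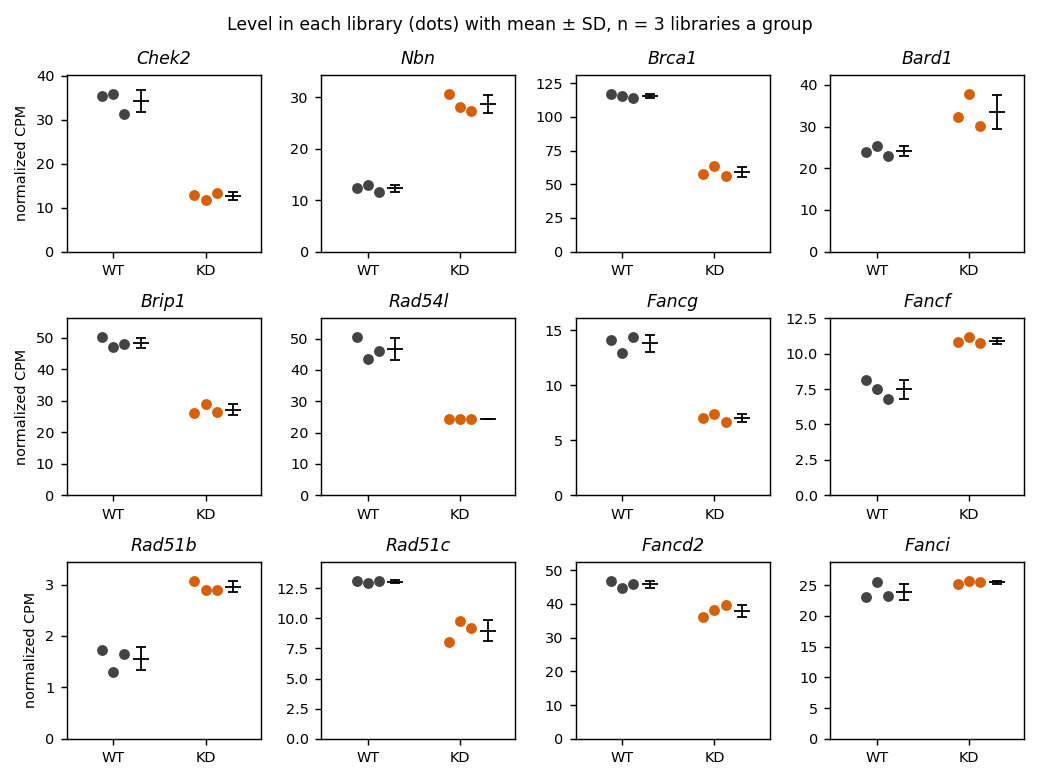
Normalized CPM of 12 of the genes in each library, as dots, with the mean and SD of the 3 libraries of a group beside them and each axis starting at 0. For Fanci the groups overlap, and for the other 11 genes they do not.

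The Fanconi core complex is the ubiquitin ligase that is called to crosslinked DNA. Of its 8 genes 2 were lower, 2 were higher and 4 did not pass. Fancg, the scaffold that binds FANCA, stood at 14.1, 12.9 and 14.4 normalized CPM in WT and 7.01, 7.38 and 6.69 in KD. This was a clear separation, with a log2 fold change of −0.98 (SE 0.11, adjusted p = 1.64e-09, edgeR) that went past a fold change of 2 without WT replicate 2 (−1.02), without KD replicate 2 (−1.0025) and with upper quartile scaling (−1.02). Fanca, its direct partner, rose by 0.37 on the log2 scale, from 24.5 ± 0.960 to 31.7 ± 1.01 (adjusted p = 1.42e-05). Fancf, an adaptor within the complex, was at 8.15, 7.50 and 6.78 in WT and 10.8, 11.2 and 10.7 in KD, so that every KD library was higher (log2 fold change 0.55, SE 0.12, adjusted p = 1.30e-04).

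Fancm, the DNA translocase that anchors the complex to chromatin, had a log2 fold change of −0.21 at an adjusted p of 0.0457 in edgeR and kept an adjusted p under 0.05 in only 4 of the 13 alternative analyses. Without WT replicate 1 it was −0.12. Fancl, the catalytic subunit, missed the threshold (0.24, adjusted p = 0.0641) and passed it without WT replicate 3 (0.36, adjusted p = 0.0152), the WT libraries lying at 8.12, 10.8 and 11.7 normalized CPM and the KD libraries at 12.7, 11.6 and 11.9. Fancc (−0.18, adjusted p = 0.194) passed only without KD replicate 1 (−0.32, adjusted p = 0.0366). Fancb and Fance had log2 fold changes of 0.13 and 0.04, and that of Fance was −0.05 without KD replicate 1 and −0.0011 with upper quartile scaling.

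The core complex attaches ubiquitin to FANCD2 and FANCI, which clamp together around DNA. Fancd2 was at 46.9, 44.8 and 45.8 normalized CPM in WT and 36.0, 38.1 and 39.7 in KD, lower in each KD library (log2 fold change −0.27, SE 0.06, adjusted p = 1.33e-04, edgeR). Fanci was at 23.1, 25.5 and 23.2 in WT and 25.2, 25.8 and 25.5 in KD, overlapping, with a log2 fold change of 0.09 and an interval from −0.06 to 0.24.

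Within the MRN complex, MRE11 is the nuclease, RAD50 the tether and NBN the subunit that recruits ATM. Nbn stood at 12.4, 13.1 and 11.7 normalized CPM in WT and at 30.8, 28.2 and 27.3 in KD. The groups lay far apart, with the lowest KD library at 27.3 and the highest WT library at 13.1, and the log2 fold change of 1.22 (SE 0.08, adjusted p = 5.19e-15, edgeR) was past a fold change of 2 in each of the 13 alternatives. Mre11a and Rad50 fell slightly, by 0.19 and 0.26 on the log2 scale (adjusted p = 4.26e-04 and 5.55e-06), from 94.3 ± 2.98 to 82.9 ± 0.988 and from 103 ± 2.94 to 86.5 ± 3.62.

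ATM answers double-strand breaks through CHK2, and ATR answers stalled forks through CHK1. Chek2 stood at 35.4, 35.9 and 31.3 normalized CPM in WT and at 12.95, 11.7 and 13.3 in KD. The groups lay far apart, with the lowest WT library at 31.3 and the highest KD library at 13.3, and the log2 fold change of −1.44 (SE 0.08, adjusted p = 2.83e-17, edgeR), the largest of the 34 in size, was past a fold change of 2 in each of the 13 alternatives. If the reads are human, as labelled, CHEK2, BRCA1, FANCD2 and PMS2 have partial pseudogene copies in that genome, and how reads shared with such copies were counted is not given in the sources used here. Chek1 fell by 0.21 (adjusted p = 1.01e-04), from 93.7 ± 1.73 to 81.0 ± 2.62. Atm did not pass, at 66.6 ± 2.88 in WT and 69.8 ± 1.82 in KD and with an interval from −0.03 to 0.17 on the log2 scale. Atr was higher by 0.16 (adjusted p = 0.0162) with overlapping groups, a call lost without WT replicate 2 (0.12), without KD replicate 2 (0.14) and with upper quartile scaling (0.12).

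The RecQ helicases unwind recombination intermediates. Blm, the one that dissolves double Holliday junctions, was at 59.7, 64.3 and 58.6 normalized CPM in WT and at 46.0, 48.7 and 46.0 in KD, lower throughout (log2 fold change −0.38, SE 0.06, adjusted p = 2.16e-07, edgeR). Wrn (0.07) and Exo1 (−0.10), the exonuclease of long-range trimming, did not pass, with intervals from −0.12 to 0.25 and from −0.23 to 0.03. Of the mismatch repair genes among the 34, Msh6, which helps to read single-base mismatches, fell by 0.22 (adjusted p = 6.13e-05), and Pms2, which nicks the strand that carries the mismatch, had a log2 fold change of −0.05 (adjusted p = 0.560).

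The ratio of counts of partner genes was taken within each library for 10 pairs, a measure that depends on neither depth nor scaling. Each ratio rests on the same counts as the fold changes of its genes, so it is not separate evidence. Bard1 had 0.204, 0.220 and 0.202 counts per Brca1 count in the WT libraries and 0.563, 0.598 and 0.534 in the KD libraries. The ratio was thus 2.71-fold higher in KD (log2 difference 1.44). Nbn had 0.136, 0.138 and 0.120 counts per Mre11a count in WT and 0.375, 0.336 and 0.330 in KD, a 2.64-fold higher ratio. Chek2 had 0.545, 0.514 and 0.483 counts per Atm count in WT and 0.180, 0.168 and 0.194 in KD, so that this ratio came to 0.352 of WT. In each of these 3 pairs the groups were wide apart.

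Smaller separations were seen for Fanci over Fancd2 (1.29-fold higher in KD), Xrcc3 over Rad51c (1.37-fold), Brip1 over Brca1 (1.10-fold) and Chek1 over Atr (0.773 of WT). Each of these 7 separated pairs had an exact two-sided permutation p of 0.1, the smallest the design allows, and 0.143 after adjustment over the 10 pairs, so none could pass 0.05. Separation was also common among single genes. Of all genes tested, 37.8% had every KD library below every WT library and 37.8% the reverse. How often the ratios of other gene pairs separate was not computed. The groups overlapped for Xrcc2 over Rad51d, Palb2 over Brca2 and Rad50 over Mre11a, with log2 differences of 0.23, −0.14 and −0.07. Because the count of a gene grows with its transcript length, these ratios give changes and not the relative amounts of the partners.

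**Figure D3:**
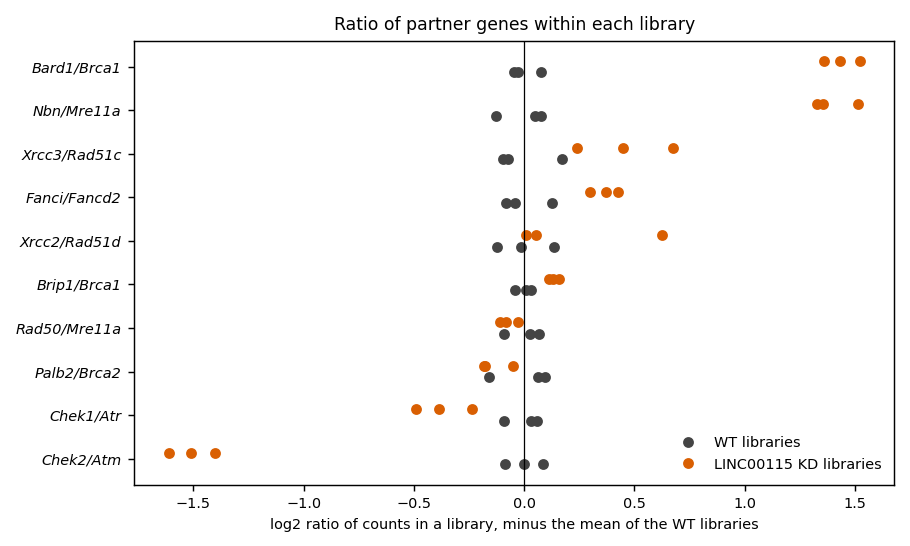
Log2 ratio of the counts of 2 partner genes in each library, minus the mean of the WT libraries, for 10 pairs, with 1 dot a library. Bard1 over Brca1 and Nbn over Mre11a lie more than 1 log2 unit to the right in KD and Chek2 over Atm more than 1 to the left, and the dots of both groups overlap for Xrcc2 over Rad51d, Rad50 over Mre11a and Palb2 over Brca2.

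Other genes of these pathways passed in both directions, where 36.7% of all genes passed each way. Of 36 further recombination and Fanconi genes 15 (41.7%) were lower, 12 (33.3%) were higher and 9 did not pass in edgeR's test, with a median log2 fold change of 0.01. Ube2t, the ubiquitin-conjugating enzyme of the Fanconi ligase, fell most, from 32.2 ± 1.16 to 15.04 ± 1.44 normalized CPM (log2 fold change −1.10, adjusted p = 2.70e-14). Rpa3, a subunit of the single-strand binding protein RPA, and Rad51ap1, which promotes strand invasion, fell by 0.75 and 0.73. Among those higher were Faap24 and Faap100, partners of FANCM and of the catalytic subunits of the core complex, with log2 fold changes of 0.78 and 0.60, and Slx1b, a structure-specific nuclease (0.69).

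Of 25 further checkpoint and damage signalling genes 10 were lower, 10 were higher (40.0% each) and 5 did not pass (median 0.01). Atrip and H2afx, also on that list, were not analysed here. Mdc1, the scaffold on damaged chromatin that binds the MRN complex through NBN, fell from 180 ± 9.14 to 62.7 ± 3.94 normalized CPM (log2 fold change −1.52, SE 0.05, adjusted p = 6.38e-25, edgeR). Brcc3 and Babam2 belong to the BRCA1-A complex, a deubiquitinase that limits trimming at breaks, and they moved apart, by −0.78 and 0.77. Cdc25c, a phosphatase that checkpoint kinases inhibit, fell by 0.44. Wee1, the kinase that holds CDK1 inactive, and Rad9a, part of the clamp that activates ATR, rose by 0.56 and 0.55.

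Of 5 further mismatch repair genes 2 were lower, 2 were higher and 1 did not pass. Mlh3 rose by 1.48 and Msh3, which recognises larger loops, by 0.34, beside the fall of 0.22 for Msh6, and Pms1 fell by 0.62. Of 10 end joining genes, the route that competes with recombination at breaks, 3 were lower, 2 were higher and 5 did not pass (median 0.00). Parp1 (−0.41) and Dclre1c, the Artemis nuclease (−0.25), fell, and Xrcc4 and Lig4, which seal the ends together, rose by 0.61 and 0.31.

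**Figure D4:**
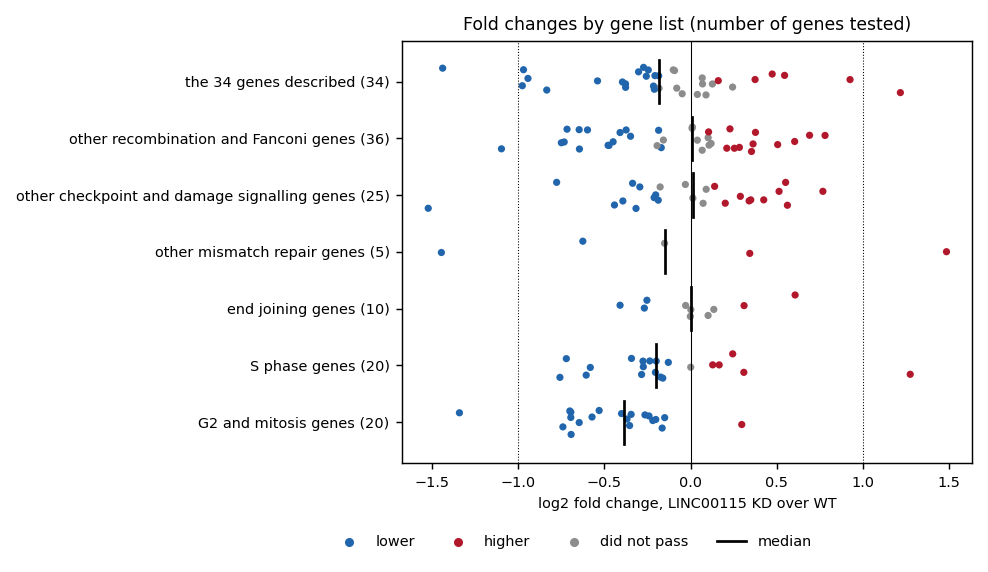
Log2 fold change of KD over WT for the genes tested in each of 7 lists, 1 dot a gene, coloured by whether it passed an adjusted p of 0.05 and with a bar at the median. The medians are −0.18 for the 34 genes, −0.20 for the S phase genes and −0.38 for the G2 and mitosis genes, and between −0.15 and 0.01 for the other lists.

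Most markers of the cell cycle were lower in KD. Of 20 S phase genes 14 (70.0%) were lower, 5 (25%) were higher and 1 did not pass (median log2 fold change −0.20), with summed levels from 3444 to 3622 normalized CPM in WT and from 3247 to 3320 in KD. Cdc6, Uhrf1 and Cdc45 fell by 0.76, 0.72 and 0.61, and Rrm2, a subunit of ribonucleotide reductase, rose by 1.27. Of 20 G2 and mitosis genes 19 (95%) were lower and 1, Ccnb1, was higher (median −0.38), with sums from 5794 to 5935 in WT and from 4295 to 4425 in KD. Relative to the median of the S phase genes, the log2 fold changes of Brca1, Rad54l, Fancg, Chek2 and Nbn were −0.77, −0.74, −0.77, −1.24 and 1.42. These genes had the largest changes of those described. Others lay close to that median, such as Fancm, Chek1, Msh6 and Mre11a at −0.0052, −0.0088, −0.0135 and 0.0165. The part of cell cycle position in the changes of the repair genes was not tested.

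Markers of other cell types also differed between the groups. Of 10 lung genes 10 were higher in every KD library, summing to 1.59 to 1.98 normalized CPM in WT and 74.5 to 86.2 in KD, and Scgb1a1, Scgb3a2, Sftpa1, Sftpb, Sftpc and Sftpd were at 0 counts in all WT libraries. Of 10 kidney genes 7 were higher and 1 lower in every KD library, with sums from 9.24 to 9.64 and from 27.6 to 31.3, and Kap, Acsm2, Umod and Slc22a6 were at 0 counts in all WT libraries and counted in every KD library, while Aqp2 was at or near 0 throughout. Of 12 leukocyte genes 4 were higher and 1, at 3 counts or fewer, was lower in every KD library, and 7 overlapped. Their sums ran from 35.1 to 35.8 and from 99.7 to 111, mostly S100a8. Ptprc, the pan-leukocyte marker, was at most 0.336 in any library and Cd3e was at 0 in all 6. The part of RNA from such cells in the changes of the repair genes was not tested, and in bulk RNA fewer cells with a transcript and less of it per cell cannot be told apart.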

How the data were processed

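RNA of 3 KD and 3 WT libraries was sequenced by the authors, who trimmed adapters, mapped reads with HISAT2 at default settings to hg19 according to the methods (hg38 in the submitters' processing notes, which also name featureCounts and DESeq2) and deposited whole-number read counts per gene without normalization. Which annotation was counted, and whether by strand, is not given in the sources used here. The gene names are those of a mouse annotation, whereas both builds named are human. Columns were assigned to samples by the descriptions in the labels.

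In R 4.3.3, edgeR 4.0.16 was applied to the counts: filterByExpr (minimum count 10, minimum total 15), TMM scaling and the quasi-likelihood test on group, with Benjamini-Hochberg adjustment over 13497 genes. Standard errors were derived from each gene's F statistic and 95% intervals from the t distribution with its total degrees of freedom. The common biological coefficient of variation was 5.21%. The steps were tested on simulated counts. Alternatives were other scalings, other count filters, each library left out, blocking on the replicate number, the Wald test of DESeq2 1.42.0 and a test against a fold change of 1.5. Of the other pathway lists, the genes named are the 3 or fewer with the largest change each way among those past an adjusted p of 0.05, with non-overlapping groups and at least 100 counts in each library of the group where the gene is higher. Marker lists were described by counts and sums, with defining markers at 0 named. The other markers named (those of the labelled line, S100a8 and Ptprc) fall outside that rule, and seeing their values preceded the choice to name them. Some genes that the rule would name are not reported here. The members and lists were chosen with earlier results of these data known.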

Additional observations from a re-analysis of the deposited data

How the results depend on the processing

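Of the 34 genes, 17 were lower and 6 higher without a fold threshold, and over the alternatives these counts stayed between 15 and 17 and between 5 and 7. Past a fold change of 2, where 1 gene was lower and 1 higher, 3 were lower with upper quartile scaling. By the test against a fold change of 1.5 in its place 5 were lower, all but Chek2 with a fitted change under 2-fold. With each library left out in turn, 1 to 3 were lower and 1 to 2 were higher. The genes that came past a fold change of 2 were Brca1, Fancg and Rad51b, as given above, besides Chek2 and Nbn. The median log2 fold change of the 34 genes lay between −0.22 and −0.15. A sign opposite to the reported one was seen for 3 genes that passed in none of the 13 alternatives. With 1 library left out, Xrcc3 lay between −0.1371 and 0.0020 and Pms2 between −0.112 and 0.0218, each highest without WT replicate 1, and Fance lay between −0.0474 (without KD replicate 1) and 0.1666, and at −0.0011 with upper quartile scaling. The same-numbered libraries of both groups deviated together weakly or not at all (correlations of 0.04, −0.01 and −0.02 across genes). WT replicate 3 with KD replicate 2 and WT replicate 2 with KD replicate 3 had correlations of 0.04. Values this small cannot tell whether libraries were prepared in pairs. With the replicate block 17 genes were lower and 7 higher, Fancl being the gene added (0.25, adjusted p = 0.0452, edgeR). No scaling moved the median of all genes by more than 0.05 on the log2 scale. With 3 libraries a group, Rad51b at 49 to 119 counts is the gene whose size is least well fixed by depth.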

Other observations

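Lists of other DNA repair routes, written after the genes above had been examined and before their own values were read, are given beside the 36.7% of all genes tested that passed in each direction. Of 12 nucleotide excision repair genes 4 (33.3%) were lower, 6 (50.0%) were higher and 2 did not pass at an adjusted p under 0.05 (edgeR's quasi-likelihood test). Ercc8, which encodes the transcription-coupled repair factor CSA, was at 4.51, 4.48 and 4.68 normalized CPM in the WT libraries and at 16.1, 16.3 and 15.9 in the KD libraries, separate groups that differed by 1.82 on the log2 scale (standard error 0.12, adjusted p = 4.73e-16, edgeR). Ercc6, which encodes its partner factor CSB, rose by 1.35, from 11.8 ± 0.647 to 30.2 ± 1.32 (SD, n = 3 libraries each). Xpa, Cetn2 and Ddb1 fell by 0.45, 0.40 and 0.22.

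Of 14 base excision repair genes tested 7 (50.0%) were lower, 3 (21.4%) were higher and 4 did not pass. Mpg, the glycosylase that removes alkylated bases, fell by 0.90, and Neil3 and Neil1, which remove oxidised bases, fell by 0.75 and 0.73, while Ung, which removes uracil, rose by 0.66. Of 12 translesion synthesis genes 5 (41.7%) were lower, 3 (25%) were higher and 4 did not pass. The polymerase gene Polk and the helicase-like gene Hltf fell by 0.74 and 0.70, and Rev1 rose by 0.46.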
